A study of Mus musculus with 6 samples.

Results

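The 34 genes described here encode proteins that carry a cell through mitosis: kinases and cyclins that start it, the spindle checkpoint, the ubiquitin machinery that ends it, and kinetochore, spindle and chromosome proteins. They were chosen by name as mitosis and spindle genes, and each matched 1 row of the deposited count table by its NCBI gene number, 34 of 24885 rows in all. RNA had been sequenced from the 3' ends of transcripts in mouse Eµ-Myc lymphoma cells, whose tumours arise from a Myc transgene under the Eµ enhancer, which is active in the B lineage. The study asks how transcripts differ once the miR-17~92 microRNA cluster is lost. The del group (3 libraries) carried the Eµ-Myc transgene, Cre-ERT2 and miR-17~92 alleles deleted with 250 nM 4-OHT over 4 days, after which deleted cells had been subcloned. The fl group (3 libraries) carried the same transgene, Cre-ERT2 and floxed, undeleted miR-17~92 fl/fl alleles, with no 4-OHT. RNA was taken after 48 hours of growth over feeders of irradiated Ink4a-null mouse embryonic fibroblasts in both groups. The labels name neither the number of subclones nor separate cultures for the libraries of a group, so p-values measure the spread between these libraries, which may be technical. The labels give 4-OHT and subcloning for del alone, so deletion, 4-OHT treatment and clonal selection cannot be told apart. Cell type markers given below also differed widely between the groups, and whether del and fl cells are of the same line cannot be told from these files, so a difference between the cells themselves cannot be told apart from the deletion either, in any value below.

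In the cell cycle, cyclin B with CDK1 drives entry into mitosis, and polo-like and Aurora kinases mature the centrosomes and correct the attachment of chromosomes. Unattached kinetochores produce a checkpoint signal from MAD2, BUBR1 and BUB3 that holds CDC20, the activator of the anaphase-promoting complex (APC/C). Once it is released, the APC/C has securin and cyclin B degraded, sister chromatids part, and the central spindle directs the division of the cell. Most of these genes are transcribed in G2 and M phase, and B lineage tumours driven by Myc divide fast. In bulk RNA, fewer cells in a phase of the cycle and less RNA per cell cannot be told apart.

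The deleted cluster encodes the microRNAs below (RefSeq, GRCm38.p6, chromosome 14, plus strand), shown because their seeds, bases 2 to 8 in capitals, pair with target transcripts. MiR-17 and miR-20a share a seed, and so do miR-19a and miR-19b.
mmu-miR-17-5p: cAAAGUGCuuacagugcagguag
mmu-miR-20a-5p: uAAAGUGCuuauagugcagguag
mmu-miR-18a-5p: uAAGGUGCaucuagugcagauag
mmu-miR-19a-3p: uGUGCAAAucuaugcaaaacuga
mmu-miR-19b-3p: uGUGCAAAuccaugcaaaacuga
mmu-miR-92a-3p: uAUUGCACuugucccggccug

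The libraries held 2121796 to 3738720 counts in del and 6554423 to 9580630 in fl, so that fl was on average 2.65 times as deep and depth went with the group. The 34 genes drew 18539 to 30360 counts per del library and 43129 to 62341 per fl library, with no gene under 47 counts in any library, and all 34 passed the filter on low counts. Levels below are CPM, with library sizes multiplied by their TMM factors, given for the libraries in the order of their replicate numbers. Each 3' read counts a transcript end, so a level is not divided by transcript length, and levels of different genes are not compared here. Each log2 fold change is that of del over fl and carries its standard error, and adjusted p (Benjamini-Hochberg, over all genes tested) come from the quasi-likelihood test of edgeR. Markers of cell type differed between the groups. The 12 B cell markers summed to 987 to 1157 CPM in del and 22.9 to 30.4 CPM in fl, the 9 myeloid markers to 1360 to 1425 CPM in del and 54.1 to 67.4 CPM in fl, and the 5 epithelial markers to 0.474 to 1.32 CPM in del and 371 to 411 CPM in fl. Lyz2 (420 to 504 CPM), Itgam (324 to 360 CPM), Tyrobp (332 to 390 CPM), Csf1r (117 to 145 CPM) and Cd68 (89.0 to 98.4 CPM) made up nearly all of the del myeloid sum. Other myeloid markers went the other way, with Cd14 at 1.05 to 2.43 CPM in del and 2.75 to 4.92 CPM in fl and Elane at 1.62 to 3.32 CPM in del and 3.90 to 7.39 CPM in fl. Epcam (166 to 175 CPM) and Krt18 (202 to 230 CPM) made up nearly all of the fl epithelial sum, while Krt8 was at 2.87 to 5.60 CPM and Krt19 and Cdh1 were at or near 0. B cell markers were thus seen in del, beside myeloid markers, and hardly in fl. These sums do not settle whether the labelled B lineage holds for the cells of either group. Ebf1 was at 96.5 to 145 CPM in del and 0 to 0.560 CPM in fl, and Blk at 3.51 to 7.58 CPM in del and 0 to 0.115 CPM in fl. Igll1 (0.263 to 0.811 CPM in del, 0 in fl), Vpreb1 (0.263 to 0.474 CPM in del, 0 to 0.112 CPM in fl) and Ms4a1 were at or near 0 in both groups. Mpo among the myeloid and Cdh1 among the epithelial markers were at 0 in both. The 11 fibroblast markers, which feeder cells would carry, summed to 7.37 to 16.6 CPM in del and 1.95 to 4.40 CPM in fl, with Lum at 0 in both groups. T and NK markers (9 genes) summed to 0.474 to 1.58 CPM in del and 1.26 to 1.79 CPM in fl, and erythroid markers (5 genes) to 0.541 to 2.37 CPM in del and 0.459 to 0.733 CPM in fl. Of these, 7 of the T and NK markers were at 0 in del and 5 in fl, and 3 of the erythroid markers in each group. The part of these cell type differences in the results below was not tested. Mir17hg, from which the microRNAs are cut, was at 167, 152 and 206 CPM in del and 252, 263 and 262 CPM in fl (-0.56 ± 0.15, adjusted p = 0.00844). Its 3' end lies past the deleted microRNAs, so this value does not check the deletion. Myc was at 452, 422 and 395 CPM in del and 454, 417 and 534 CPM in fl (-0.15 ± 0.15, adjusted p = 0.399).

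The mitotic genes did not move as a block. Of the 34, 8 rose in del (23.5%, against 32.5% of all 10260 genes tested) and 16 fell (47.1%, against 32.6%), and 10 did not pass the threshold of 0.05. In either direction 24 were called, 70.6% against a background of 65.1%. The median log2 fold change was -0.31 for the 34 genes and -0.00 for all genes tested. By at least 2-fold, 5 rose (14.7%, background 21.4%) and 9 fell (26.5%, background 15.9%). All 3 del values lay above all 3 fl values for 9 genes (26.5%, background 34.2%) and below them for 18 (52.9%, background 35.7%), together 79.4% against 69.9% of all genes. The summed level of the 34 was nonetheless higher in del, at 7498, 8782 and 8207 CPM, against 7148, 6739 and 6323 CPM in fl. Much of the del sum came from the 5 genes that rose by at least 2-fold. Their means in del and fl were 1358 and 531 CPM for Top2a, 1046 and 367 CPM for Cenpe and 948 and 288 CPM for Cenpf. Those of Mki67 were 727 and 169 CPM, and those of Kif23 597 and 210 CPM. The sum therefore does not describe the 16 genes that fell.

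**Figure D1:**
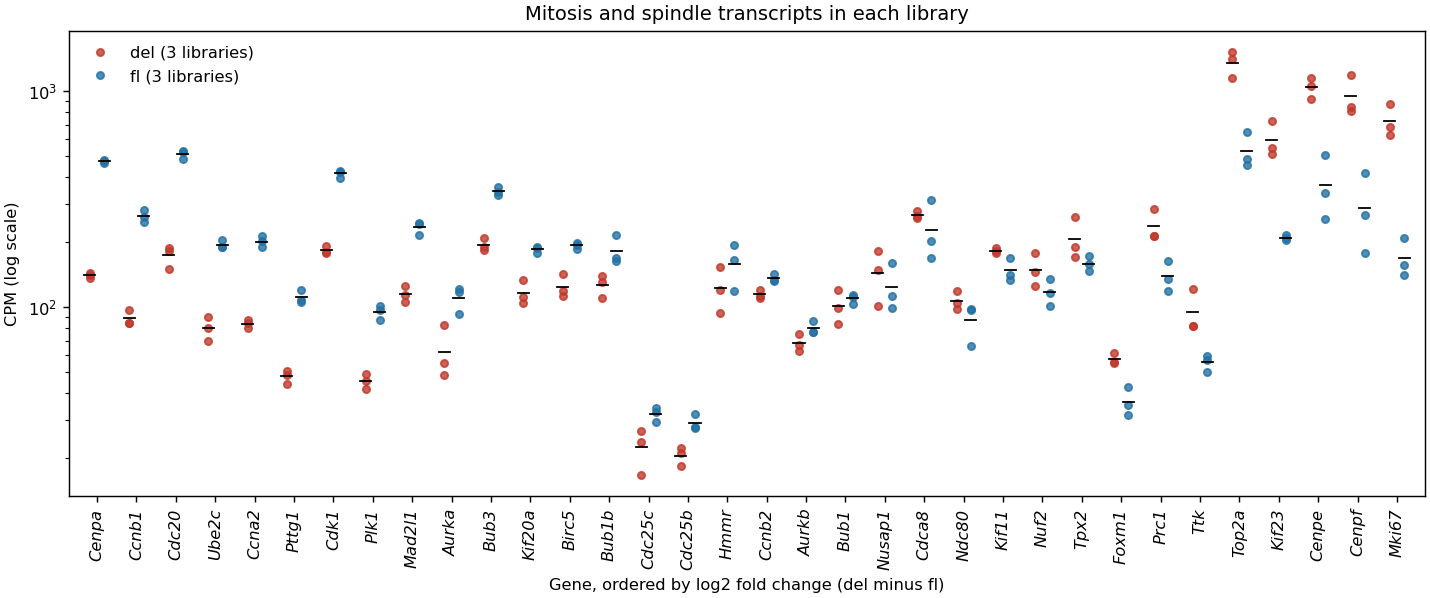
CPM on a log scale in each library for the 34 genes, ordered by log2 fold change, with del in red to the left of fl in blue and black bars for group means (n = 3 libraries). From Cenpa to Cdc25b on the left, and for Ccnb2 and Aurkb, all del points lie under all fl points. From Foxm1 to Mki67 on the right, and for Kif11, all del points lie above them.

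Among the kinases and cyclins that drive entry into mitosis, 7 of 8 fell (against 32.6% of all genes tested) and none rose (against 32.5%). Ccnb1, which encodes cyclin B1, was at 84.8, 97.6 and 84.3 CPM in del and 262, 249 and 282 CPM in fl (log2 fold change -1.57 ± 0.14, adjusted p = 1.39e-05). Every del library held less than every fl library by a wide margin. Cdk1, its kinase partner, was at 178, 180 and 192 CPM in del and 430, 398 and 423 CPM in fl (-1.18 ± 0.13, adjusted p = 5.29e-05). Ccna2, encoding cyclin A2, which acts in S phase and early mitosis, was at 86.9, 84.3 and 80.6 CPM in del and 202, 190 and 213 CPM in fl (-1.26 ± 0.13, adjusted p = 3.32e-05). In each of these genes the libraries of a group differed by far less than the groups did. Plk1, the polo-like kinase gene, was at 45.8, 49.3 and 41.9 CPM in del and 87.7, 97.4 and 102 CPM in fl (-1.07 ± 0.14, adjusted p = 0.000124). Aurka, whose kinase acts at centrosomes and spindle poles, was at 82.7, 55.4 and 48.7 CPM in del and 122, 93.4 and 117 CPM in fl (-0.83 ± 0.21, adjusted p = 0.00669). Here del replicate 1 lay close to the lowest fl library.

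The phosphatase genes of this group, which remove the inhibitory phosphates from CDK1, drew few counts, 47 to 102 per del library. Cdc25b was at 21.1, 22.3 and 18.4 CPM in del and 27.9, 27.8 and 32.1 CPM in fl (-0.51 ± 0.15, adjusted p = 0.0121). Cdc25c was at 26.9, 23.7 and 16.8 CPM in del and 32.7, 34.2 and 29.5 CPM in fl (-0.52 ± 0.18, adjusted p = 0.0305). Cdc25c no longer passed once del replicate 2 (adjusted p = 0.0510), del replicate 3 (0.101), fl replicate 1 (0.0550) or fl replicate 2 (0.0838) was left out, and neither gene passed with all libraries thinned to 2121796 counts (-0.29, adjusted p = 0.199 for Cdc25b and -0.39, 0.124 for Cdc25c). Ccnb2, encoding cyclin B2, was the member that was not called. It stood at 111, 121 and 113 CPM in del and 133, 143 and 133 CPM in fl (-0.25 ± 0.12, adjusted p = 0.103), but passed with upper-quartile factors (-0.38, adjusted p = 0.0288). Foxm1, the transcription factor that activates many G2 and M phase genes, went the other way and was at 55.6, 61.6 and 55.1 CPM in del and 35.3, 31.8 and 42.8 CPM in fl (0.65 ± 0.15, adjusted p = 0.00416).

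Genes of the spindle assembly checkpoint were split. Of 5, 3 fell (against 32.6% of all genes tested) and 1 rose (against 32.5%). Mad2l1, whose product MAD2 binds and holds CDC20, was at 126, 114 and 106 CPM in del and 244, 216 and 245 CPM in fl (-1.03 ± 0.14, adjusted p = 0.000162). Bub3, which brings BUB1 and BUBR1 to kinetochores, was at 185, 209 and 191 CPM in del and 341, 330 and 361 CPM in fl (-0.82 ± 0.13, adjusted p = 0.000505). Bub1b, the gene of BUBR1, was at 139, 131 and 110 CPM in del and 216, 169 and 164 CPM in fl (-0.53 ± 0.16, adjusted p = 0.0169), with fl replicate 1 well above the other 2 fl libraries. Bub1b no longer passed once del replicate 3 was left out (adjusted p = 0.0516). Bub1, a kinase gene of the same checkpoint, was at 120, 99.0 and 83.8 CPM in del and 104, 112 and 114 CPM in fl, with overlapping groups (-0.12 ± 0.16, adjusted p = 0.511). Ttk, which encodes MPS1, the kinase that starts the checkpoint signal, was at 81.9, 82.0 and 122 CPM in del and 56.8, 59.8 and 50.4 CPM in fl (0.78 ± 0.18, adjusted p = 0.00412). It was the checkpoint gene that rose.

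The genes that act at the exit from mitosis all fell, 3 of 3, against 32.6% of all genes tested. Cdc20, the activator of the APC/C, was at 183, 189 and 151 CPM in del and 489, 532 and 523 CPM in fl (-1.57 ± 0.15, adjusted p = 2.15e-05). Ube2c, the ubiquitin-conjugating enzyme of the APC/C, was at 80.1, 90.5 and 69.7 CPM in del and 189, 190 and 204 CPM in fl (-1.28 ± 0.14, adjusted p = 5.7e-05). Pttg1 encodes securin, which restrains separase until anaphase. It was at 44.2, 50.7 and 48.7 CPM in del and 106, 120 and 108 CPM in fl (-1.22 ± 0.13, adjusted p = 5.04e-05). By the group means, Cdc20 was 2.96-fold, Ube2c 2.43-fold and Pttg1 2.33-fold lower in del.

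Centromere and kinetochore genes held both the largest fall and some of the largest rises among the 34. Cenpa (RefSeq span chr5:30666877-30674837, GRCm38), the histone H3 variant that marks centromeres, was at 137, 144 and 141 CPM in del and 464, 478 and 484 CPM in fl (-1.76 ± 0.13, adjusted p = 5.59e-06). Cenpe, a kinesin that moves chromosomes to the spindle equator, was at 926, 1154 and 1058 CPM in del and 338, 509 and 255 CPM in fl (1.51 ± 0.24, adjusted p = 0.000491). The libraries of Cenpa lay close together in each group, whereas the highest fl library of Cenpe was 1.99 times the lowest. Cenpf, a coiled-coil protein of the outer kinetochore, was at 814, 1187 and 843 CPM in del and 421, 266 and 178 CPM in fl (1.72 ± 0.30, adjusted p = 0.000972), where the highest fl library was 2.36 times the lowest. Ndc80 and Nuf2, partners in the complex that binds microtubules, were not called. Ndc80 stood at 120, 98.1 and 105 CPM in del and 98.4, 97.2 and 66.6 CPM in fl (0.30 ± 0.18, adjusted p = 0.167), and Nuf2 at 145, 178 and 125 CPM in del and 101, 116 and 135 CPM in fl (0.34 ± 0.17, adjusted p = 0.108). The groups overlapped for Nuf2 and, by 1 fl library, for Ndc80.

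The chromosomal passenger complex corrects faulty attachments and later acts at the cleavage furrow. Birc5, the gene of survivin, was at 119, 113 and 142 CPM in del and 199, 187 and 194 CPM in fl (-0.63 ± 0.14, adjusted p = 0.00298). Aurkb, the kinase of the complex, was at 75.3, 67.3 and 63.0 CPM in del and 77.2, 77.1 and 86.4 CPM in fl (-0.23 ± 0.13, adjusted p = 0.165). Cdca8, the gene of borealin, was at 278, 265 and 260 CPM in del and 315, 203 and 169 CPM in fl (0.22 ± 0.22, adjusted p = 0.387). Its del libraries lay within the wide fl range, and without fl replicate 1 it was called higher (0.52, adjusted p = 0.0154).

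Of the 7 genes of spindle motors and microtubule-binding proteins, 2 rose (against 32.5% of all genes tested) and 1 fell (against 32.6%). Kif23, the kinesin of the central spindle, was at 513, 733 and 545 CPM in del and 209, 216 and 205 CPM in fl (1.51 ± 0.17, adjusted p = 5.58e-05). Prc1, which bundles the same microtubules, was at 214, 286 and 215 CPM in del and 164, 135 and 119 CPM in fl (0.77 ± 0.18, adjusted p = 0.0037). Kif20a, another kinesin of the central spindle, was at 104, 135 and 111 CPM in del and 189, 178 and 190 CPM in fl (-0.67 ± 0.14, adjusted p = 0.00239). Thus genes of 1 structure moved in opposite directions. The 4 others, at the spindle itself, were not called, with log2 fold changes of -0.38 ± 0.23 for Hmmr, 0.22 ± 0.25 for Nusap1, 0.30 ± 0.14 for Kif11 and 0.39 ± 0.18 for Tpx2. Hmmr ranged from 94.3 to 154 CPM in del and from 119 to 194 CPM in fl, and Nusap1 from 102 to 182 CPM in del and from 98.8 to 160 CPM in fl, so that libraries of a group differed more than the group means did. Kif11 was at 179 to 188 CPM in del and 134 to 170 CPM in fl, with no overlap, and was called without fl replicate 1 (0.40, adjusted p = 0.0353). Tpx2 was called without del replicate 2 (0.51, adjusted p = 0.0374). Without del replicate 3, Nuf2 was called higher (0.45, adjusted p = 0.0456) and Hmmr lower (-0.58, adjusted p = 0.0492).

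Both genes of chromosome structure rose, as did 32.5% of all genes tested. Mki67 (RefSeq span chr7:135689784-135716450, GRCm38), which encodes the Ki-67 protein that coats mitotic chromosomes and is used to stain dividing cells, was at 683, 629 and 870 CPM in del and 211, 157 and 141 CPM in fl (2.10 ± 0.20, adjusted p = 2.4e-05). Top2a, the topoisomerase that untangles sister chromatids, was at 1149, 1516 and 1409 CPM in del and 649, 488 and 456 CPM in fl (1.35 ± 0.18, adjusted p = 0.000156). Del held 4.29 times as much Mki67 and 2.56 times as much Top2a as fl, while it held less of Ccnb1, Cdc20 and Plk1, whose products also act in dividing cells.

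**Figure D2:**
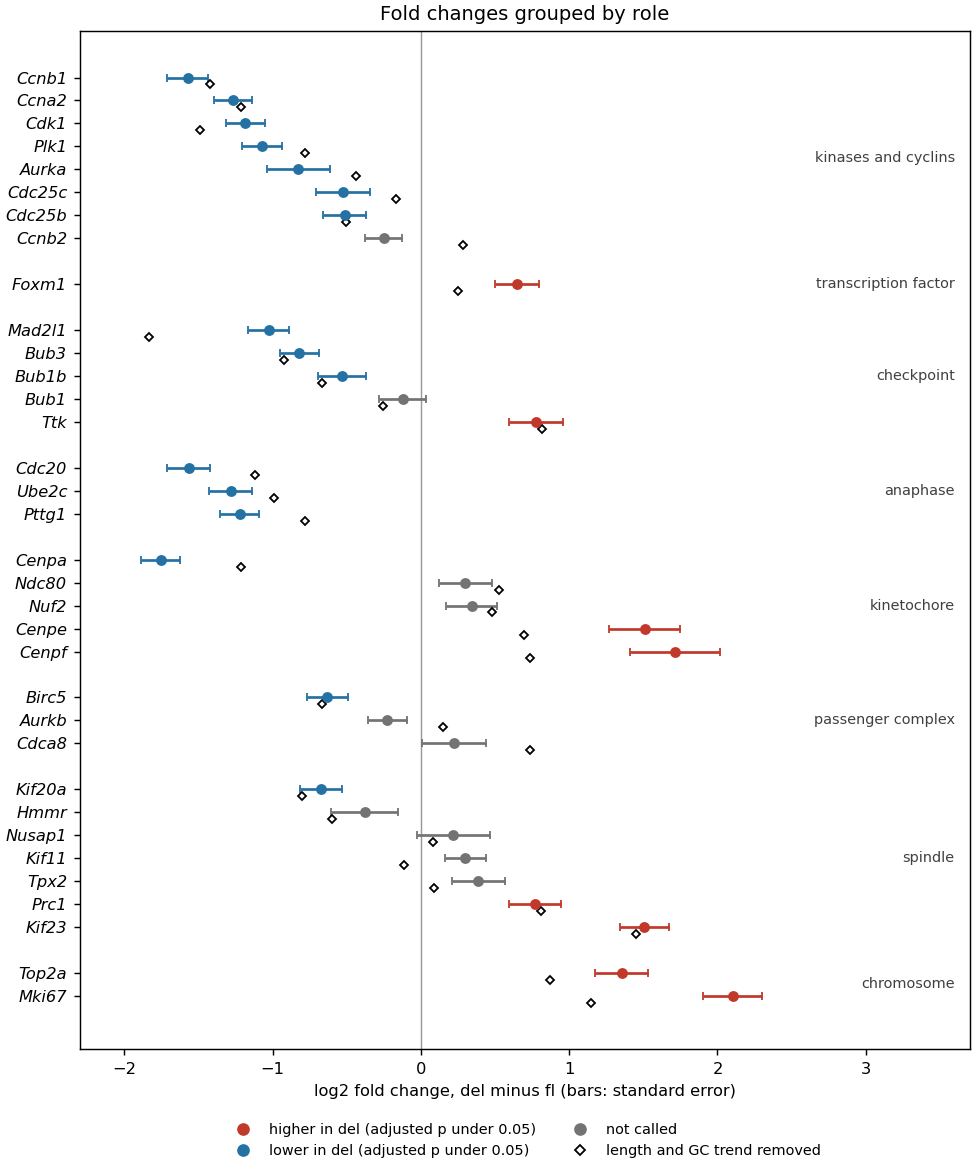
Log2 fold change (del minus fl) of the 34 genes grouped by role, filled circles with standard errors from 3 libraries a group, and open diamonds for the same value after removal of the trend on length and GC content. The 8 kinase and cyclin genes and the 3 anaphase genes lie left of 0, apart from Ccnb2 with the trend removed, and Cenpe, Cenpf, Kif23, Top2a and Mki67 lie right of it on both measures.

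Transcript length moved with these differences. The 8 genes that rose had a median longest protein-coding transcript of 4937 nucleotides and the 16 that fell one of 2727 nucleotides, against 3096 nucleotides over 10010 tested genes with a length. Across the 34 genes, Spearman's rho between log2 fold change and length was 0.51, and across the 10010 genes it was 0.42. These are descriptions across genes of the same libraries, which are not independent. With all genes split by length into 5 bins of equal size, the bin of the longest transcripts (from 5077 nucleotides) had a median log2 fold change of 0.84, and 61.0% of it was called higher (10.7% lower). Mki67 (10061 nucleotides), Cenpf (11130), Cenpe (7910) and Top2a (5221) belong to it, as does Mad2l1 (7557), which fell. The bin of the shortest transcripts had a median of -0.72, with 12.1% called higher and 62.1% lower, and Cenpa (1466 nucleotides) and Pttg1 (1674), which fell, and Ccnb2 (1531) and Cdca8 (1626), not called, lie there. How much of the difference between the groups of the 34 genes goes with length alone was not tested beyond the removal of this trend.

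With the trend of all genes on length and GC content removed, 9 of the 34 were called higher and 15 lower, against 28.8% and 28.1% of the 10010 genes in that fit. Mki67 was then at 1.15 (adjusted p = 0.000953), Top2a at 0.87 (0.00257), Kif23 at 1.45 (9.26e-05) and Cenpe at 0.70 (0.0316), while Cenpf at 0.74 was no longer called (0.0599). On the other side Cenpa was at -1.22 (5.24e-05), Ccnb1 at -1.42 (2.84e-05), Cdc20 at -1.12 (0.000193), Cdk1 at -1.49 (1.77e-05) and Mad2l1 at -1.83 (7.35e-06). Calls were also lost for Aurka (-0.44, adjusted p = 0.102), Cdc25c (-0.17, 0.462) and Foxm1 (0.25, 0.184). They were gained by Cdca8 (0.73, 0.0177), Ndc80 (0.52, 0.0312), Nuf2 (0.48, 0.0391) and Hmmr (-0.60, 0.0463). Ccnb2, Aurkb and Kif11, which were not called, changed sign. The fall of Ccnb1, Cdk1, Cdc20 and Cenpa and the rise of Mki67, Kif23 and Top2a were therefore called with and without this trend, at other sizes.

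**Figure D3:**
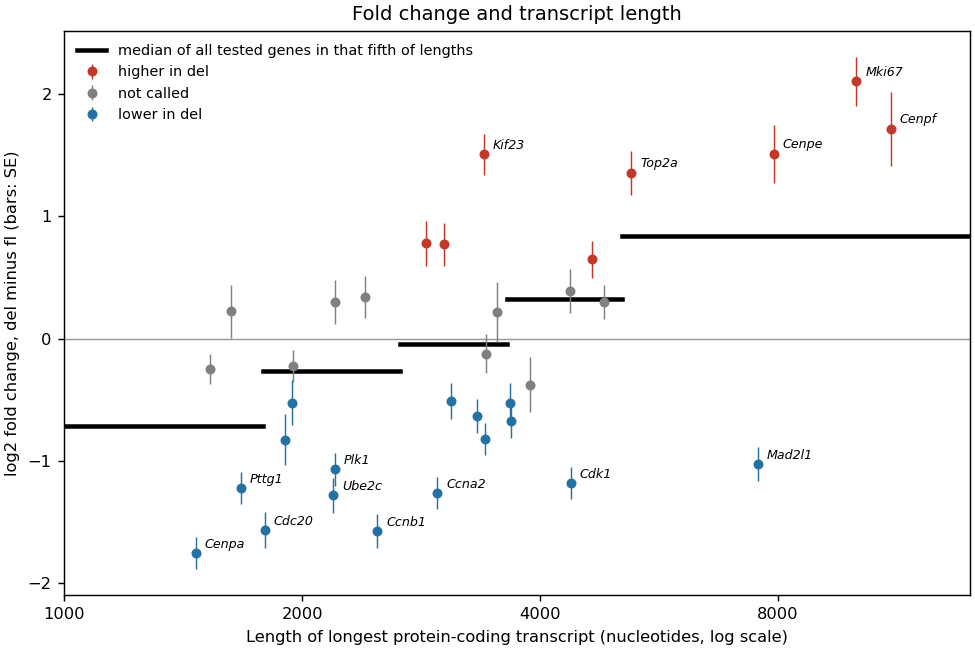
Log2 fold change (del minus fl, bars standard errors, n = 3 libraries a group) of the 34 genes against the length of the longest protein-coding transcript on a log scale. Black lines give the median of all tested genes in each of the 5 bins of length, from -0.72 to 0.84, the first and last cut at the axis; Kif23 lies far above the line at its length, and Cdk1 and Mad2l1 far below.

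Ratios between partner genes within a library need no scaling between libraries. The log2 ratio of Ccnb1 to Ccnb2 counts was -0.38, -0.31 and -0.42 in del and 0.98, 0.80 and 1.08 in fl, a difference of -1.32. Every del ratio lay below 0 and every fl ratio above it. The ratio of Aurka to Aurkb was 0.13, -0.28 and -0.37 in del and 0.65, 0.28 and 0.44 in fl (difference -0.63), and that of Bub1 to Bub1b was -0.21, -0.41 and -0.39 in del and -1.06, -0.59 and -0.52 in fl (difference 0.39). In these 3 of 6 pairs the groups did not overlap, and each reached 0.1 in a two-sided exact permutation test, the smallest p that 3 against 3 libraries allow (0.2 adjusted over the 6 pairs). Among single genes, 69.9% of all those tested had no overlap between the groups. The share among pairs of other genes was not counted, so these pairs are not set apart from other genes. The Cdc25b to Cdc25c ratio differed by 0.03 (exact p = 0.9), Cenpe to Cenpf by -0.22 (exact p = 0.6) and Ndc80 to Nuf2 by -0.02 (exact p = 0.8), all with overlapping groups. Without fl replicate 1 the Bub1 to Bub1b difference was 0.22. Leaving out single libraries took the Cenpe to Cenpf difference from -0.57 (without fl replicate 1) to 0.06 (without fl replicate 2), that of Ndc80 to Nuf2 from -0.31 (without fl replicate 3) to 0.17 (without fl replicate 1), and that of Cdc25b to Cdc25c from -0.08 (without del replicate 3) to 0.16 (without fl replicate 3).

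**Figure D4:**
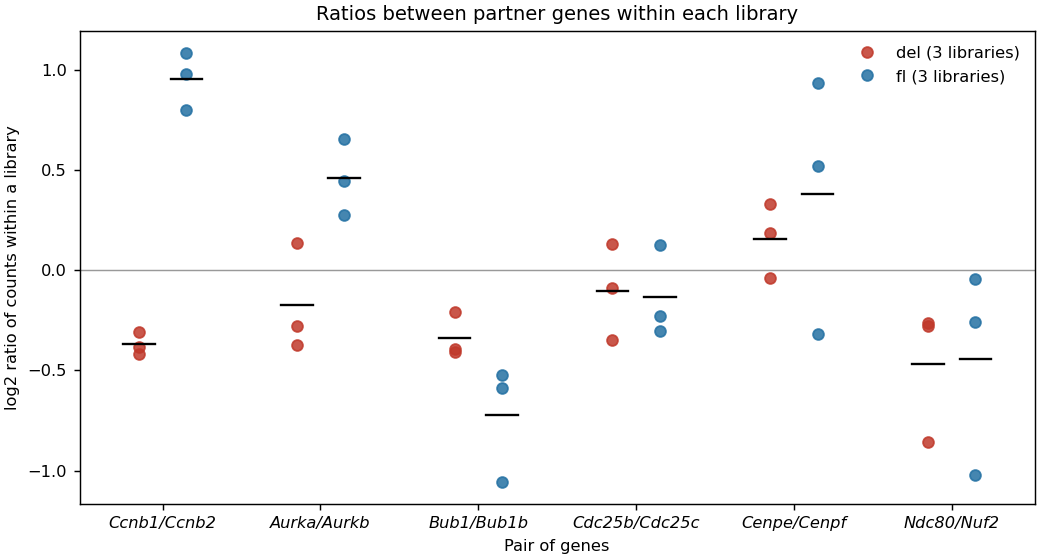
Log2 ratio of counts between partner genes in each library, with del in red to the left of fl in blue and black bars for group means (n = 3). The Ccnb1/Ccnb2 points lie at -0.42 to -0.31 in del and at 0.80 to 1.08 in fl, while those of Cdc25b/Cdc25c, Cenpe/Cenpf and Ndc80/Nuf2 overlap.

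Promoters of G2 and M phase genes often hold a cell cycle gene homology region (CHR, TTTGAA), which the DREAM repressor complex and the activators B-MYB and FOXM1 share, and CCAAT boxes bound by NF-Y. RefSeq promoters (GRCm38.p6, 250 bases before to 50 after the start) were found for 28 of the 34 genes. Read on both strands, TTTGAA occurred in 19 of the 28 (67.9%), in 17.9% of all 32851 promoters and in 14.4% of the tested genes with one. CCAAT occurred in 22 (78.6%), against 37.4% of all promoters and 43.5% of the tested genes. Neither motif contains the other, though their ends can share a base, and 18 of the 28 held both (64.3%, against 7.27% of tested genes). The CHR letters stood in promoters of genes that moved in either direction: in 6 of the 7 that rose, 8 of the 13 that fell and 5 of the 8 not called. A match is a description and shows no binding. The windows below give the match nearest the start for genes that fell and then for genes that rose. Capitals mark the match on the strand that reads TTTGAA, with 10 bases on each side. The capitals are the same in every window because they were searched for, so only the bases beside them can differ. The match of Bub1b lies too near the edge of its promoter for such a window.
Cenpa: cgggtgatttTTTGAActgctggcga
Cdc20: acagttgggtTTTGAAggagccaatg
Ube2c: gccgcccgcgTTTGAAttgcaaccct
Cdk1: ccgcggcgagTTTGAAactgctggca
Plk1: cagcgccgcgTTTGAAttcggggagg
Aurka: aaggagaaccTTTGAAttgtaacggc
Bub3: attggctgatTTTGAAcgccaacggc
Prc1: tctggctcggTTTGAAttccgcgggg
Ttk: cggaaacacgTTTGAAatttccccgc
Top2a: cctagtttcaTTTGAAcctttatcta
Kif23: gattggcctgTTTGAAatgcgccggg
Cenpf: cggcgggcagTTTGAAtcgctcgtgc
Mki67: gccgttttggTTTGAAtcgggcgggc

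The promoters of the gene that fell furthest and the gene that rose furthest are given whole, with TTTGAA and CCAAT on either strand in capitals. That of Cenpa (chr5:30666636-30666935, plus strand) holds 1 CHR match, centred 19 bases past the start, and 2 CCAAT boxes. That of Mki67 (chr7:135716330-135716629, minus strand) holds 2 CHR matches, 113 and 95 bases before the start, and 3 CCAAT boxes.
Cenpa: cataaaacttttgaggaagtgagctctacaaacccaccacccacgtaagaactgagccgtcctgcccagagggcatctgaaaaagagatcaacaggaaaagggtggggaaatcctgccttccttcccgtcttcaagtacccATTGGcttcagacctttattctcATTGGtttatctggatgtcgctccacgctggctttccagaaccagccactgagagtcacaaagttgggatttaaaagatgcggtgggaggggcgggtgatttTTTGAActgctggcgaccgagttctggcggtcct
Mki67: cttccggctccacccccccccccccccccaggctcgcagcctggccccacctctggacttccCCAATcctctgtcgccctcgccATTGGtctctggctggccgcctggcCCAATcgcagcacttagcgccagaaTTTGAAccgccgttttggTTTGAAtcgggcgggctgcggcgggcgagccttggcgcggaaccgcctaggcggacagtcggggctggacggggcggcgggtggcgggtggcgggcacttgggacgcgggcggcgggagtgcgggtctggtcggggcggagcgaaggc

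Seed sites of the deleted microRNAs were searched in the longest annotated 3' UTRs of the 34 genes (GENCODE M21), which need not be the ones expressed. A 7-base site of any of the 4 families was present in 9 of the 34 (26.5%), against 33.9% of 9839 tested genes with a 3' UTR. The 3' UTRs of the 34 had a median length of 803 nucleotides, against 1196 for the tested genes. By family, 8.82% of the 34 held a site of miR-17 and miR-20a (14.7% of tested genes), 11.8% of miR-18a (9.15%), 8.82% of miR-19 (13.5%) and 2.94% of miR-92a (7.67%). Of the 9 genes with a site 3 rose, 3 fell and 3 were not called (median log2 fold change 0.22, median 3' UTR 1630 nucleotides). These are near the shares over all genes tested, 32.5% higher and 32.6% lower. Of the 25 without a site 5 rose, 13 fell and 7 were not called (median -0.51, 603 nucleotides). Calls were not counted for all tested genes with a site, and the difference between the 9 and the 25 genes was not tested. Sites of miR-17 and miR-20a lay in Kif23 and Foxm1, which rose, and in Bub3, which fell, and Prc1, which rose, was the gene with sites of miR-19 and of miR-92a. Ccna2, which fell, held sites of miR-18a and miR-19, Mad2l1, which fell, one of miR-19, and Hmmr, Nusap1 and Tpx2, not called, one of miR-18a each. The sites in the genes that rose and in Bub3 are shown with the seed match in capitals.
Kif23 miR-17/20a site: aaaaaaatGCACTTTagacatat
Foxm1 miR-17/20a site: acggggttGCACTTTgcttctgc
Bub3 miR-17/20a site: cagtggctGCACTTTtgagaatc
Prc1 miR-19a/b site: tcagcaacTTTGCACatctacaa
Prc1 miR-92a site: tttctgtaGTGCAATttcttgag

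The wider mitotic machinery was read from 8 further lists, which hold 131 genes, all tested. Of these 50 rose (background 32.5%) and 33 fell (background 32.6%), with a median log2 fold change of 0.12. With the length and GC trend removed 38 were higher (background 28.8%) and 31 lower (28.1%). Cohesin and its regulators, which hold sister chromatids together, had the highest median (1.03): 10 of 14 rose and 1 fell. Nipbl, the cohesin loader, was at 402 ± 40.5 CPM in del and 80.7 ± 21.8 CPM in fl (2.31 ± 0.22), and Smc3, a ring subunit, at 1317 ± 107 CPM in del and 368 ± 123 CPM in fl (1.84 ± 0.24), while Cdca5, which protects cohesion, fell (-0.80 ± 0.15). Condensin, which compacts chromosomes, had 4 of 8 higher, among them, by smallest p, Smc2 at 1268 ± 319 CPM in del and 327 ± 146 CPM in fl (1.95 ± 0.31) and Ncapd3 (1.12 ± 0.27), and 1 lower, Ncaph2 (-0.67 ± 0.13). The median transcript of the cohesin list is 5770 nucleotides long and that of the condensin list 4473. With the length and GC trend removed, 6 cohesin genes were higher and 2 lower, and 2 condensin genes were higher and 2 lower, Ncapd3 no longer passing (0.58, adjusted p = 0.0922) and Nipbl at 1.41.

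Of 17 other APC/C genes, 7 fell (background 32.6%) and 2 rose (background 32.5%), and with the trend removed 7 were lower (background 28.1%) and 3 higher (28.8%). Ube2s, the enzyme that extends the ubiquitin chains begun by UBE2C, was at 74.1 ± 6.81 CPM in del and 198 ± 10.4 CPM in fl (-1.41 ± 0.14, adjusted p = 2.45e-05; -0.73 with the trend removed), and Cdc26, a small subunit, was also lower (-1.07 ± 0.16), though not called with the trend removed (-0.26, adjusted p = 0.173). Anapc5, a scaffold subunit, rose (0.99 ± 0.21). Anapc16 also rose (0.61 ± 0.23, adjusted p = 0.0401), but did not pass once del replicate 1 (0.164), del replicate 2 (0.129), fl replicate 2 (0.105) or fl replicate 3 (0.0882) was left out, nor with upper-quartile factors (0.48, 0.0806) or thinned libraries (0.113). Of 35 other kinetochore genes 12 fell (background 32.6%). Among them were Zwint, an outer kinetochore gene (-1.55 ± 0.14), and Trip13, whose ATPase dismantles the checkpoint complex (-1.02 ± 0.13). In the same list 7 rose (background 32.5%). Among them were Knl1, the scaffold that recruits BUB1 and BUBR1 (1.99 ± 0.29, and 1.14 with the trend removed), and Mis12 (1.63 ± 0.25). With the trend removed 9 genes of this list were higher (background 28.8%) and 8 lower (28.1%).

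Several large scaffolds of the spindle and centrosome were higher. Of 25 other spindle genes 11 rose (background 32.5%) and 6 fell (background 32.6%). Numa1, which anchors spindle poles, was at 94.8 ± 7.51 CPM in del and 33.5 ± 5.62 CPM in fl (1.51 ± 0.16), and Aspm, another pole protein, rose by 1.24 ± 0.14. The augmin subunits Haus1 (-1.03 ± 0.14) and Haus5 (-1.05 ± 0.20) fell. Of 11 centrosome genes 7 rose (background 32.5%), with the scaffolds Pcnt (1.82 ± 0.19) and Cdk5rap2 (1.54 ± 0.21). Another 2 centrosome genes fell (background 32.6%): Tubg1, the gamma-tubulin gene (-0.67 ± 0.16), and the kinase gene Nek2 (-0.45 ± 0.13). Of 6 genes of passenger and cytokinesis proteins 3 rose (background 32.5%), with the kinase gene Cit (2.13 ± 0.20) and the anillin gene Anln (1.47 ± 0.17). In that list 2 fell (background 32.6%): Ect2, which activates RhoA (-1.06 ± 0.16), and Cep55 (-0.47 ± 0.15), an abscission gene. Cep55 did not pass without del replicate 1 (adjusted p = 0.0733) or fl replicate 2 (0.0507), in thinned libraries (-0.25, 0.198) or with the trend removed (-0.39, 0.0554), nor did Nek2 without fl replicate 2 (0.0517). Pcnt (9341 nucleotides), Cdk5rap2 (11847), Cit (9514), Aspm (9867) and Numa1 (7180) have long transcripts, and with the trend removed Pcnt was at 0.85, Cit at 1.16 and Numa1 at 0.74. With the length and GC trend removed 8 of the spindle genes were higher (background 28.8%) and 6 lower (28.1%), and 3 of the centrosome genes were higher and 2 lower. Aspm (0.31), Cdk5rap2 (0.48) and Tubg1 (-0.22) were then no longer called.

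Regulators that act on CDK1 and on mitotic transcription were mixed, with 6 of 15 higher (background 32.5%) and 2 lower (background 32.6%). Cdc25a, a phosphatase that activates CDKs, was at 151 ± 32.8 CPM in del and 69.2 ± 15.9 CPM in fl (1.12 ± 0.22), so that it rose while Cdc25b and Cdc25c fell. Haspin, whose kinase marks histone H3 for the passenger complex, also rose (1.20 ± 0.19). Arpp19, an inhibitor of the phosphatase that opposes CDK1, was lower (-0.46 ± 0.15, adjusted p = 0.0252), but did not pass without del replicate 2 (0.0817), del replicate 3 (0.0622), fl replicate 1 (0.0513) or fl replicate 2 (0.0591). Mybl2, the gene of B-MYB, which acts with FOXM1 at CHR promoters, was at 30.1 ± 4.47 CPM in del and 64.9 ± 3.22 CPM in fl (-1.10 ± 0.15, adjusted p = 0.00017). Foxm1 (not called with the trend removed) was higher and Mybl2 lower in the same libraries.

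**Figure D5:**
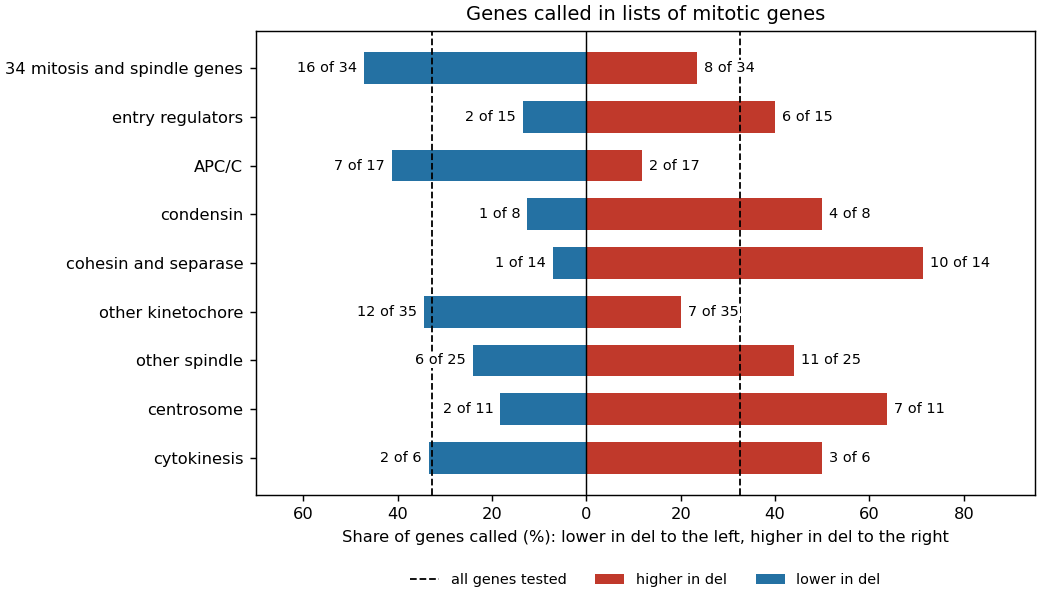
Share of tested genes called in the 34 genes and in 8 further lists, lower in del to the left and higher in del to the right, with counts beside the bars and dashed lines at the shares over all genes tested (32.6% and 32.5%). Lower calls outnumber higher ones among the 34 genes, the APC/C and the other kinetochore genes, and higher calls lead in the other 6 lists. With the length and GC trend removed the kinetochore genes have 9 higher and 8 lower calls and the condensin genes 2 and 2, beside 28.8% and 28.1% of all genes.

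Reads of neighbouring genes bear on a few values. The last 500 bases of Cdc20, Ube2c, Ccna2, Bub3, Kif20a and Prc1 overlap a gene on the opposite strand, and those of Foxm1 overlap Tex52 on the same strand, in the GENCODE annotation. The libraries were strand-specific per the labels, but no source used here gives the strand setting of the counting. Ccnb1 and Ccnb2 have pseudogene copies in the RefSeq table, and how reads shared with them were treated is not given either, so that their levels are uncertain to that extent.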

How the data were processed

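The authors deposited 1 table of raw counts per gene for 6 libraries of oligo-dT primed 3' RNA-seq. Per the submitters' processing notes, reads went through STAR and HTSeq on mm10; versions and settings: not given in the sources used here. Of 24885 rows, 24052 carry gene numbers, 23969 of which matched the RefSeq table of GRCm38; the 833 rows with accessions hold at most 0.00391% of a library's counts. Library totals were 2121796 to 9580630 counts. Groups were compared with edgeR 4.0.16 (R 4.3.3): filterByExpr, TMM factors, robust glmQLFit and glmQLFTest with group as the only term, fitted across 10260 genes, and Benjamini-Hochberg adjustment. The fit was tested on simulated data in which few genes changed, up or down alike, and the trend removal on data with a length trend put in. Neither checked the scaling or the false calls where most genes are called, as here. Standard errors were derived from the F statistic. Alternatives were other scalings and filters, DESeq2 1.42.0, thinning, the replicate number as a term, leaving out each library, and a gene-wise offset from a loess trend (span 0.5) on log10 length of the longest protein-coding transcript and GC content. Pair ratios used counts plus 0.5. The named genes were all 34, with up to 2 genes a direction from each further list by smallest p. Genes and lists were chosen with earlier results of these data known.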

Additional observations from a re-analysis of the deposited data

How the results depend on the processing

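Under the alternatives run the counts of genes called among the 34, the 131 further genes and all genes stayed within 1.5 times the values reported, with 8 to 10 of the 34 higher and 14 to 17 lower. Of the 24 called genes, 18 kept direction and call under every alternative run; the exceptions are Aurka, Bub1b, Cdc25b, Cdc25c, Cenpf and Foxm1. The median of the 34 was -0.44 with upper-quartile factors (which moved the median of all genes to -0.13), -0.27 with library totals alone, -0.36 with no count filter, -0.21 with the length and GC trend removed and -0.22 with that and the replicate block. Leaving out single libraries gave medians of -0.35 to -0.27. With the trend removed Ccnb2 (0.28), Aurkb (0.15) and Kif11 (-0.12) changed sign, as they did with the block added (0.29, 0.15 and -0.11); none was called. The cause was not tested. Over 16 alternatives the adjusted p ranged from 0.00128 to 0.102 for Aurka, 0.00416 to 0.0516 for Bub1b, 0.00490 to 0.199 for Cdc25b, 0.0107 to 0.462 for Cdc25c, 2.04e-07 to 0.0599 for Cenpf and 0.000961 to 0.224 for Foxm1. For genes not called it ranged from 0.0288 to 0.426 for Ccnb2, 0.0353 to 0.585 for Kif11, 0.0374 to 0.799 for Tpx2, 0.0391 to 0.332 for Nuf2, 0.0463 to 0.441 for Hmmr, 0.0253 to 0.474 for Ndc80 and 0.00811 to 0.838 for Cdca8. In the further lists it ranged from 0.00135 to 0.164 for Anapc16, 0.00299 to 0.0817 for Arpp19, 0.00636 to 0.198 for Cep55, 0.00364 to 0.0517 for Nek2, 1.87e-08 to 0.199 for Cdc26 and 0.000382 to 0.0922 for Ncapd3.

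Same-numbered libraries did not deviate together (correlations 0.08, -0.04 and -0.02), and the highest of all pairs was 0.17, del replicate 3 with fl replicate 2. No shared effect of the replicate number was thus seen, though 3 libraries a group cannot settle whether they were paired. The replicate block called 3295 genes higher and 3215 lower, against 3333 and 3343 without it, and left 8 of the 34 higher and 16 lower. Over the 6 libraries left out in turn, 3076 to 3275 genes were higher and 2973 to 3233 lower. Cdc25b and Cdc25c had the fewest counts, 47 to 102 counts per del library, and thinning to equal depth gave -0.29 and -0.39.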
